A study of Homo sapiens with 16 samples.

Results

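PC3 cells are an established human prostate cancer line that grows without androgen. This account compares PC3 cells labelled DDX4-null with control PC3 cells, both grown in culture and called monolayers here, across all measured genes. The comparison rests on 8 of the 16 RNA-seq libraries of the series, 4 control and 4 DDX4-null, chosen by their labels and not by any measured value. The other 8 libraries are labelled as PC3 xenograft tumors, 4 control and 4 DDX4-null, and served here as a separate readout. Whether tumors and monolayers came from the same cell populations is not stated. The labels do not say how DDX4 was removed, whether the null cells are 1 clone, which host carried the tumors, or whether the 4 libraries of a group are separate cultures. The p-values therefore rest on a spread between libraries that may be technical only.

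DDX4, also called VASA, is an RNA helicase of the DEAD-box family that is best known from germ cells, where it sits in RNA granules and takes part in translation and in the piRNA pathway. PC3 cells carry a deletion of CTNNA1, and they are known for high secretion of inflammatory cytokines and for constant NF-kB activity.

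Library totals ran from 14368124 to 18836982 counts in control and from 16151344 to 21763745 in DDX4-null monolayers. The upper limit that a count of 0 allows in a library, 3 counts, equalled 0.138 to 0.209 CPM (counts scaled to a library of 1000000), for counting error only. Replicates correlated at 0.989 to 0.995 across genes, against 0.871 to 0.881 between the groups. Over the 13006 tested genes, the mean profile of DDX4-null tumors correlated at 0.938 with control monolayers and at 0.886 with DDX4-null monolayers, so the null tumors were nearer to the control monolayers. The 2 tumor groups correlated at 0.993. These are descriptions over genes, which are not replicates, and library and depth are shared within a profile. DDX4 itself held 0, 4, 1 and 5 counts in the control and 2, 4, 0 and 1 counts in the DDX4-null monolayers (two-sided exact permutation p = 0.543, where 0.0286 is the smallest possible). A change was not detectable at this depth, and DDX4 RNA does not check the labels. CTNNA1, which is deleted in PC3, stood at 3.41 ± 0.711 CPM in control and 2.67 ± 0.46 CPM in null cells (SD, n = 4). The summed level of 10 fibroblast markers was 23.1 to 30.5 CPM in control and 43.7 to 55.9 CPM in null libraries, carried by COL1A1, COL3A1 and PDGFRA, while the defining markers DCN and LUM were at 0.197 CPM or less. Of 16 leukocyte markers 1 reached 1 CPM in a group, and their sum stayed between 2.15 and 4.9 CPM in the 8 libraries. Mitochondrially encoded RNA took 3.15% to 4.49% of counts in 7 libraries and 6.05% in DDX4-null replicate 2.

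The difference between the monolayers was broad. Of 13006 genes tested with edgeR's quasi-likelihood test, 4555 rose (35.0%) and 4201 fell (32.3%) in DDX4-null cells at a Benjamini-Hochberg adjusted p under 0.05, and every count of members below is to be read against these shares. Changes of at least 2-fold were called for 1689 genes that rose and 1126 that fell. At 8-fold or more the balance was 567 to 125, so the large changes were mostly gains. The median log2 change was 0.02 and the median absolute log2 change 0.48. Genes with at least 1 CPM in every library numbered 11690 in control and 12143 in DDX4-null cells.

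**Figure D1:**
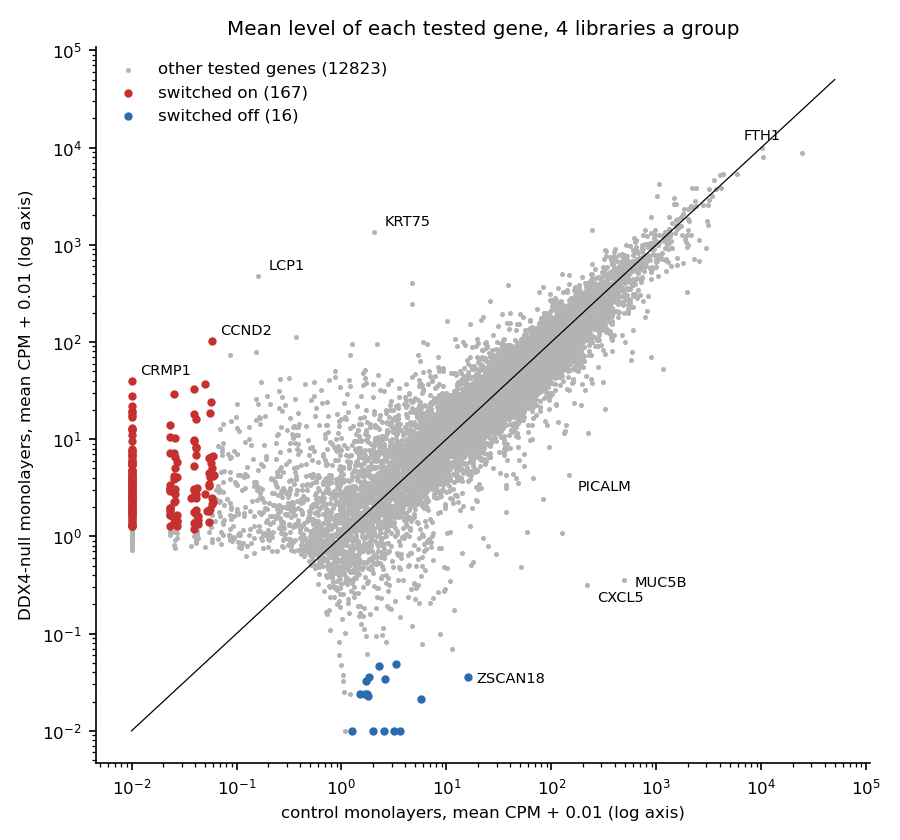
Mean CPM plus 0.01 of each tested gene in control (horizontal, log axis) and DDX4-null monolayers (vertical, log axis), 4 libraries a group, with the line of equal level. The 167 red genes form a column at the left edge, silent in control and reaching 102 CPM in null cells, and the 16 blue genes lie along the lower edge.

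Genes switched fully on or off were defined by counts. A gene counted as silent in a group with at most 3 counts over its 4 libraries, and as active with at least 1 CPM in each library of the other group. By this rule 167 genes were switched on in DDX4-null cells and 16 were switched off. All of them passed the filter for testing, but the rule itself fixes their difference, so no test is given for them. Of the 167, 83 had no control count at all, and of the 16, 5 had no null count. The switched-on genes were mostly lowly expressed: their mean level in null cells had a median of 3.11 CPM, 22 of them reached 10 CPM, and together they took 0.104% of the null counts. Just inside the rule was HLA-DPA1, with 1.01 CPM in its lowest null library, and just outside was BEX5, with 0.987 CPM. At 3 control counts 23 genes were kept, and 24 further genes that met the level in null cells had 4.

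CCND2, a D-type cyclin that drives entry into S phase, was the most abundant switched-on gene. Its level was 0.191, 0, 0 and 0 CPM in the control libraries and 105, 113, 87.9 and 101 CPM in the DDX4-null libraries, a ratio of 2314-fold (95% counting interval 791 to 11221). All 3 control counts came from 1 library. CRMP1, a cytosolic partner of semaphorin signalling in neurons, had no control count and 42.2, 38.9, 41.7 and 36 CPM in the null libraries, which is at least 897-fold higher when 3 counts are allowed over the control group. PTPRG, a receptor tyrosine phosphatase, had 0, 0, 0.162 and 0 CPM in control and 36.4, 29.2, 43.8 and 40.02 CPM in null libraries, 849-fold (95% counting interval 290.2 to 4119) higher. The rule that chose these genes fixes that the groups do not overlap.

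Roles of the switched-on genes were sorted after their values were seen, and the counts below describe them without a test. The share of each role among all genes, or among genes silent in control, was not counted. The counts therefore do not show that any role is more frequent here than elsewhere. 22 genes encode proteins of neuronal adhesion, axon guidance or the synapse. NLGN4X, a postsynaptic adhesion protein, reached 29.2 ± 2.28 CPM from 1 control count, CADM1, a synaptic and epithelial adhesion molecule, reached 27.7 ± 1.81 CPM from none, and the neural adhesion molecule NCAM1 reached 19.4 ± 1.95 CPM from none. KIF1A, the kinesin that carries synaptic vesicle precursors, stood at 15.9 CPM, and the presynaptic proteins NRXN2, NRXN3 and SYN3 at 4.43, 6.48 and 6.86 CPM. Of 13 neuroendocrine markers, NCAM1 included, 4 were tested, 1 rose and 1 fell. Synaptophysin (SYP) was at 0.144 CPM in control and 0.129 CPM in null cells and the secretogranin SCG2 at 0.636 and 0.625 CPM, and UCHL1 had no count in any of the 8 libraries.

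Ion channels and their subunits made up 14 of the switched-on genes. KCNQ3, a subunit of the M-type potassium channel, had 1 control count and reached 14 ± 2.12 CPM. SCN4B, an accessory subunit of voltage-gated sodium channels, also had 1 control count and reached 6.61 ± 0.499 CPM. Potassium channels were also counted as a class by gene name: of 35 tested, 25 rose and 6 fell, with a median log2 change of 1.82 beside 0.02 for all genes, and 6 were switched on. The class held 95 genes. The switched-on ones passed the filter only through the null group, as did KCNK10 and KCNH2, with 4 and 6 control counts. The count of rises and the median therefore follow in part from the filter. KCNJ14 went the other way, from 2.65 ± 0.449 to 0.322 ± 0.173 CPM, a log2 change of -2.99 ± 0.29.

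Transcription factors and cofactors accounted for 23 switched-on genes, with levels from 1.35 to 21.8 CPM. RARB, a retinoic acid receptor, reached 19.1 ± 1.44 CPM, and EYA2, a cofactor in organ development, 18 ± 2.08 CPM. LEF1, which binds DNA with beta-catenin, reached 10.4 ± 1.9 CPM, and ZIC2, PAX2 and SOX2, regulators of neural and kidney development and of pluripotency, 6.51 ± 0.553, 4.81 ± 0.744 and 3.18 ± 0.706 CPM. MYCN, a relative of MYC, stood at 1.92 ± 0.424 CPM from no control count, beside MYC itself at 443 CPM in control and 777 CPM in null cells. 5 switched-on genes belong to stratified epithelium, among them the cornified envelope protein IVL at 3.11 CPM and the keratin KRT6A at 2.5 CPM. 8 are immune genes, such as the kinase SYK at 10.9 CPM and the chemokine CCL2 at 7.18 CPM. SLFN11, a nuclear protein that sensitizes cells to replication damage, stood at 18.4 CPM from 3 control counts.

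The 16 switched-off genes were fewer and, with 1 exception, weak. ZSCAN18, a zinc finger factor, had 16.7, 16.7, 13 and 17.6 CPM in the control and 0.103, 0, 0 and 0 CPM in the null libraries, 575-fold (95% counting interval 159 to 4755) lower. VCAM1, the vascular cell adhesion molecule, had 6.06, 5.4, 5.6 and 5.66 CPM in control and 1 count over the null libraries, 412-fold (95% counting interval 73.4 to 16308) lower. EVC2, a protein of the primary cilium that acts in hedgehog signalling, had 3.57, 3.25, 3.23 and 4.42 CPM in control and no null count, at least 87.3-fold lower. Of the 16, 7 are C2H2 zinc finger genes, the KRAB-type repressor family and its relatives: ZSCAN18, ZNF283, ZNF222, ZNF43, ZNF268, ZFP28 and ZNF607. C2H2 genes made up 443 of the 13006 tested genes. 6 of the 7 lie on chromosome 19, which held 205 of the 443 tested C2H2 genes and 942 of all 13006 tested genes. The other switched-off genes included the G protein subunit GNA14 (3.31 to 0.0389 CPM), the G protein regulator RGS11 (1.79 to 0.0129 CPM) and the drug transporter SLC47A1 (1.5 to 0.0142 CPM).

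Promoter sequence from RefSeq was at hand for 110 of the 167 switched-on and 13 of the 16 switched-off genes. CpG pairs, the usual sites of DNA methylation, are shown in capitals over the 250 bases before the start in 2 genes that were switched on and 2 that were switched off, on GRCh38.p14.
CRMP1 (chr4:5893087-5893336, minus strand): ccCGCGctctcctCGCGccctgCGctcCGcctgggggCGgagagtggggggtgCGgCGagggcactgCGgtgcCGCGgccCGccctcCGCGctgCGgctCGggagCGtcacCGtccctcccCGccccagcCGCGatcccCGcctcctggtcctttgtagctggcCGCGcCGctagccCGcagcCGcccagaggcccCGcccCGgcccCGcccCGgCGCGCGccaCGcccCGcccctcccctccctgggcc
PTPRG (chr3:61561321-61561570, plus strand): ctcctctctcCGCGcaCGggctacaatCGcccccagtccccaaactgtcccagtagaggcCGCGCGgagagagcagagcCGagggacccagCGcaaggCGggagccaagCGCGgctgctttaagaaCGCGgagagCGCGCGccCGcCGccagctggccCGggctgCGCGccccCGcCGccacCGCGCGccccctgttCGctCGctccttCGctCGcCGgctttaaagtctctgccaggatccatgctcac
ZSCAN18 (chr19:58118405-58118654, minus strand): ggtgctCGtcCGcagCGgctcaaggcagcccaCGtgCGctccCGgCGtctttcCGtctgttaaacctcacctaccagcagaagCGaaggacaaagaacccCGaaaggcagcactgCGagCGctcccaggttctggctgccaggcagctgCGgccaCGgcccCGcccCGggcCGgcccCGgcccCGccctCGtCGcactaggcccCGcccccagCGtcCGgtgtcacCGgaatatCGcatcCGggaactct
ZNF222 (chr19:44025129-44025378, plus strand): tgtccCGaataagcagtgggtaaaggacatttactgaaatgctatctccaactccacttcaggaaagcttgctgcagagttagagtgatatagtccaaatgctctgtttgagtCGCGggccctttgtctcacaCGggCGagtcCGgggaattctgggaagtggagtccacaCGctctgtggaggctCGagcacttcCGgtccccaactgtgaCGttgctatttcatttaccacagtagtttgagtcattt
These windows hold 37, 32, 27 and 10 CpG pairs. The median was 16 over the switched-on, 13 over the switched-off and 21 over the tested genes with a sequence. VCAM1, also switched off and not shown, held 2. Promoters were called CpG-rich with at least 50% GC and an observed over expected CpG ratio of at least 0.6. By this measure 61 of 110 switched-on genes were CpG-rich (55.5%), 7 of 13 switched-off genes (53.9%), and 44.9% of all 27305 promoters in the RefSeq table and 77.2% of the 10416 tested genes with a sequence. Methylation was not measured here.

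The tumor libraries gave a second comparison under the same labels, though whether their cells match the monolayers is not stated. Of the 12942 genes tested in tumors, 127 rose (0.981%) and 143 fell (1.1%) in DDX4-null tumors. Among the 167 genes switched on in monolayers, 36 could be tested in tumors, and 3 of these rose and 0 fell. Among these 36, 9 rose and 0 fell at an unadjusted p under 0.05. The share of all genes at that looser threshold was not counted, so this count has no background beside it. Over all 167 genes the median level was 0.135 CPM in control tumors and 0.253 CPM in DDX4-null tumors, against 3.11 CPM in DDX4-null monolayers. CCND2 stood at 0.637 ± 0.254 CPM in control and 2.3 ± 0.884 CPM in null tumors, a log2 change of 1.83 ± 0.37 (edgeR adjusted p = 0.0341). IGFBP2, a carrier of insulin-like growth factors, stood at 0.103 ± 0.12 and 0.996 ± 0.32 CPM (log2 change 3.04 ± 0.61, edgeR adjusted p = 0.0329), and CTDSPL, a phosphatase that acts on RB1, at 0.257 ± 0.0624 and 0.831 ± 0.238 CPM (log2 change 1.70 ± 0.36, edgeR adjusted p = 0.0399). All 3 were more than 10-fold lower in null tumors than in null monolayers. Of the 16 switched-off genes 9 could be tested in tumors and 1 fell: EVC2, at 0.995 ± 0.114 CPM in control and 0.129 ± 0.112 CPM in null tumors. ZNF43 and ZNF222, silent in null monolayers, stood at 5.02 ± 0.961 and 3.18 ± 0.516 CPM in null tumors.

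Levels in tumors were also set against both monolayer groups for all strong changes. Of the 567 genes that rose at least 8-fold in null monolayers, 469 (82.7%) had a level in null tumors nearer to the control than to the null monolayers on the log2(CPM + 0.5) scale, and 482 (85.0%) in control tumors. The count for the 125 genes that fell at least 8-fold was 84 (67.2%) in null and 86 (68.8%) in control tumors. Conversely, of the 124 genes called higher in null tumors and tested in monolayers, 56 rose and 45 fell in null monolayers, and of the 137 called lower in tumors, 51 fell and 44 rose. Those shares of 45.2% and 37.2% stand beside monolayer backgrounds of 35.0% and 32.3%. TCN1, a vitamin B12 binder, was among the genes that rose in both settings, from 4.67 ± 1.6 to 400.1 ± 40.01 CPM in monolayers and from 0.37 ± 0.288 to 19.8 ± 8.62 CPM in tumors.

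Among genes with counts in both groups, the largest rise was that of LCP1, the actin-bundling protein L-plastin. Its level was 0.128, 0.0692, 0.215 and 0.187 CPM in control and 463, 472, 460.5 and 511 CPM in null libraries, a log2 change of 11.53 ± 0.18 (SE, edgeR adjusted p = 1.5e-19). KRT75, a hair follicle keratin, had 1.66, 2.01, 1.89 and 2.61 CPM in control and 1391, 1499.9, 1200.0 and 1281 CPM in null libraries (log2 change 9.36 ± 0.16), and it also rose in tumors, from 4.13 ± 0.725 to 18.7 ± 6.61 CPM. The growth factor gene IGF2 went from 0.361 ± 0.116 to 113 ± 12.8 CPM (SD, n = 4), the sphingosine phosphate exporter SPNS2 from 0.0775 ± 0.0600 to 73.6 ± 6.02 CPM, and the matrix protein MGP from 0.0913 ± 0.0295 to 23 ± 2.65 CPM. On the falling side MUC5B, a gel-forming mucin, had 417, 580.2, 565 and 405 CPM in control and 0.567, 0.227, 0.356 and 0.224 CPM in null libraries (log2 change -10.46 ± 0.22). It was also lower in null tumors, at 7.37 ± 6.21 CPM against 31.3 ± 9.52 CPM (edgeR adjusted p = 0.039). CA9, a carbonic anhydrase of the hypoxia response, fell from 11.2 ± 0.682 to 0.0594 ± 0.0698 CPM, PTGS2, the inducible cyclooxygenase, from 126 ± 6.6 to 1.08 ± 0.273 CPM, and the receptor kinase ROS1 from 5.88 ± 0.29 to 0.0677 ± 0.0641 CPM. The control and null libraries did not overlap in any of these genes, which were picked for the size of their change. Of the 13006 tested genes, 4031 stood higher and 3684 lower in null cells without overlap.

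**Figure D2:**
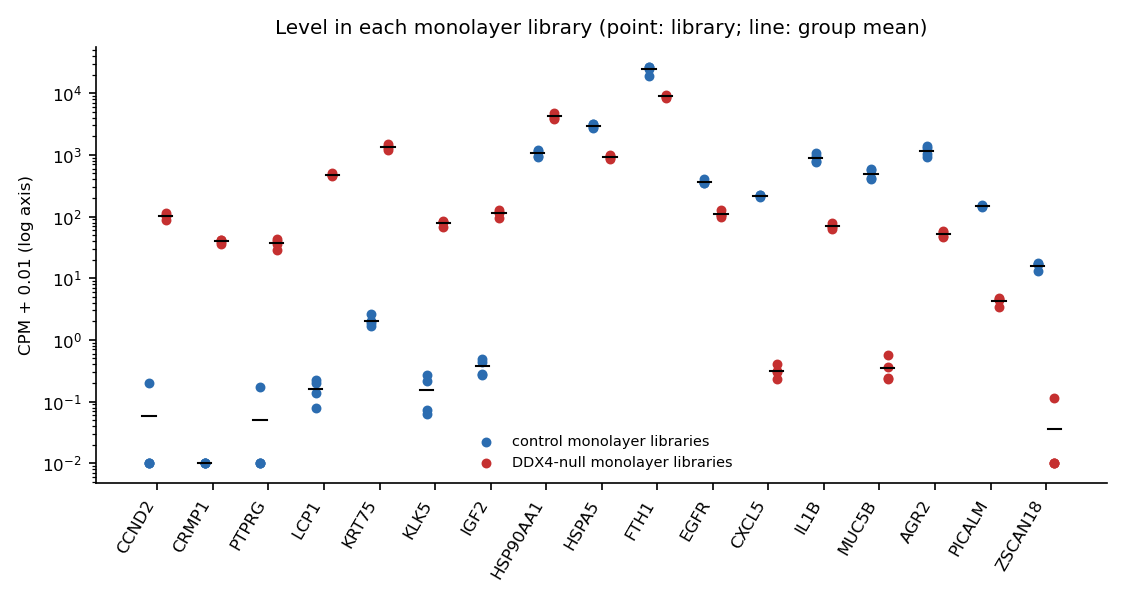
CPM plus 0.01 (log axis) of 17 genes in each of the 8 monolayer libraries, blue for control and red for DDX4-null, with a line at each group mean. The 2 groups are separate in every gene shown. Of all 13006 tested genes, 4031 were higher and 3684 lower in null cells without overlap.

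Chemokines and cytokines were lower in DDX4-null cells. The CXC chemokines attract neutrophils and lymphocytes, and those that bind the receptor CXCR2 sit side by side on chromosome 4. Their promoters hold a sequence of the kind that NF-kB binds, shown here because these genes fell, with the letters GGANTTTCC (either strand) in capitals and 15 bases on each side, on GRCh38.p14.
CXCL1 (chr4:73869300-73869338, plus strand): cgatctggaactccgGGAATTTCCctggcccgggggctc
CXCL2 (chr4:74099249-74099287, minus strand): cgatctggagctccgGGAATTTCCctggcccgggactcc
CXCL3 (chr4:74038744-74038782, minus strand): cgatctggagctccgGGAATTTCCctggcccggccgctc
CXCL5 (chr4:73998744-73998782, minus strand): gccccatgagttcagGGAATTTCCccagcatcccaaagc
CXCL6 (chr4:73836574-73836612, plus strand): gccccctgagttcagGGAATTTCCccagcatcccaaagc
CXCL8 (chr4:73740463-73740501, plus strand): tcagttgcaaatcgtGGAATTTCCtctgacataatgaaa
The match began 77 to 91 bases before the start in these 6 genes. The 8 members of the CXC list with a sequence held it, CXCL10 and CXCL11, which were too low to be tested, included, against 1.47% of all 27305 promoters. Among interleukins, 2 of 8 promoters held it, while 6 of 8 tested genes fell and 1 rose. All 6 chemokine genes shown fell. CXCL8, which encodes interleukin 8, went from 1951 ± 310.3 to 326 ± 49.9 CPM and CXCL1 from 571 ± 48.8 to 65.6 ± 8.66 CPM. CXCL5 was the most affected, with 221, 217, 221 and 205 CPM in control and 0.309, 0.397, 0.297 and 0.224 CPM in null libraries, a log2 change of -9.45 ± 0.16. CXCL6 changed least, from 85.8 ± 5.48 to 32.6 ± 2.52 CPM (-1.40 ± 0.10). CXCL16, which is made as a membrane protein, rose from 10.2 ± 1.73 to 18.3 ± 1.02 CPM.

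Over the whole list of 40 cytokines, chemokines and their receptors, 7 of 32 tested genes rose and 21 fell, with a median log2 change of -1.14. IL1B, an interleukin that starts inflammation, had 948, 760.1, 793 and 1079 CPM in control and 67, 79.8, 62.4 and 69.4 CPM in null libraries (log2 change -3.68 ± 0.13). All 4 colony-stimulating factors tested fell, among them LIF, which keeps stem cells undifferentiated, from 378 ± 33.4 to 154 ± 13.8 CPM, and CSF2 from 21.3 ± 2.69 to 6.03 ± 0.527 CPM. IL11 went up, from 1.94 ± 0.288 to 4.2 ± 0.369 CPM. Of the 5 NF-kB subunits 4 fell, with a median log2 change of -0.66, among them RELB, the subunit of the noncanonical pathway, at -1.85 ± 0.11 and RELA, the main activating subunit, at -0.36 ± 0.11. The call of RELA was lost when the median of each chromosome was subtracted (-0.09, edgeR adjusted p = 0.477). Of 8 adhesion and enzyme targets tested all 8 fell, with a median log2 change of -2.20. They included ICAM1, a ligand for leukocyte integrins, from 309 ± 25.6 to 38.9 ± 4.62 CPM, SOD2, the mitochondrial superoxide dismutase, from 583 ± 44.4 to 79.3 ± 6.47 CPM, and LCN2, an iron-binding defence protein, from 239.7 ± 38.9 to 41.6 ± 9.59 CPM. TNFAIP3, a feedback inhibitor, fell by a log2 change of -0.29 ± 0.09, and its call was lost when libraries were scaled by their totals (-0.21, edgeR adjusted p = 0.0509).

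Interferon-response genes were lower as well. Many carry an interferon-stimulated response element, whose core of 2 GAAA words with any 2 bases between them (either strand) is in capitals in these promoter stretches, 4 of genes that fell and the last of one that rose, on GRCh38.p14.
IFI6 (chr1:27672324-27672363, minus strand): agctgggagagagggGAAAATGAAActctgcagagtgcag
IFI44 (chr1:78649756-78649788, plus strand): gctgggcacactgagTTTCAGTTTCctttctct
BST2 (chr19:17405736-17405775, minus strand): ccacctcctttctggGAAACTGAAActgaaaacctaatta
SAMD9 (chr7:93118091-93118130, minus strand): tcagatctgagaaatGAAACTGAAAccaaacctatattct
HERC5 (chr4:88456979-88457018, plus strand): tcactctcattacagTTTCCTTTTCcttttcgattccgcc
Among 21 interferon effector promoters with a sequence, 13 held the core, against 3.07% of all promoters. Of 26 tested effectors 25 fell and 1 rose. IFI6, a mitochondrial survival protein, fell from 64.7 ± 1.24 to 9.92 ± 1.86 CPM, IFI44 from 35.5 ± 4.9 to 7.83 ± 0.868 CPM, BST2, a tether of budding virus, from 6.21 ± 1.05 to 2.04 ± 0.554 CPM, and SAMD9, an antiviral factor, from 70.7 ± 4.34 to 22.3 ± 4.93 CPM. HERC5, the ligase that attaches ISG15, was the exception with the same core, and rose from 7.5 ± 1.33 to 16.8 ± 1.07 CPM. All 5 transcription factors of the list fell, IRF9 from 5.35 ± 0.814 to 0.571 ± 0.263 CPM and IRF1 from 70.6 ± 1.58 to 17.8 ± 1.56 CPM. BST2 lost its call in a model of all 16 libraries (edgeR adjusted p = 0.0719). The sensor STING1 rose from 31.1 ± 3.51 to 42.3 ± 3.61 CPM. All 5 tested guanylate-binding proteins, which attack intracellular pathogens, fell, with a median of -1.56. In antigen presentation 11 of 19 genes fell and 1 rose: HLA-B, from 38.1 ± 2.06 to 70.1 ± 8.15 CPM. B2M, the shared light chain, was at 662 and 642 CPM. Reads of HLA genes can be shared between loci.

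**Figure D3:**
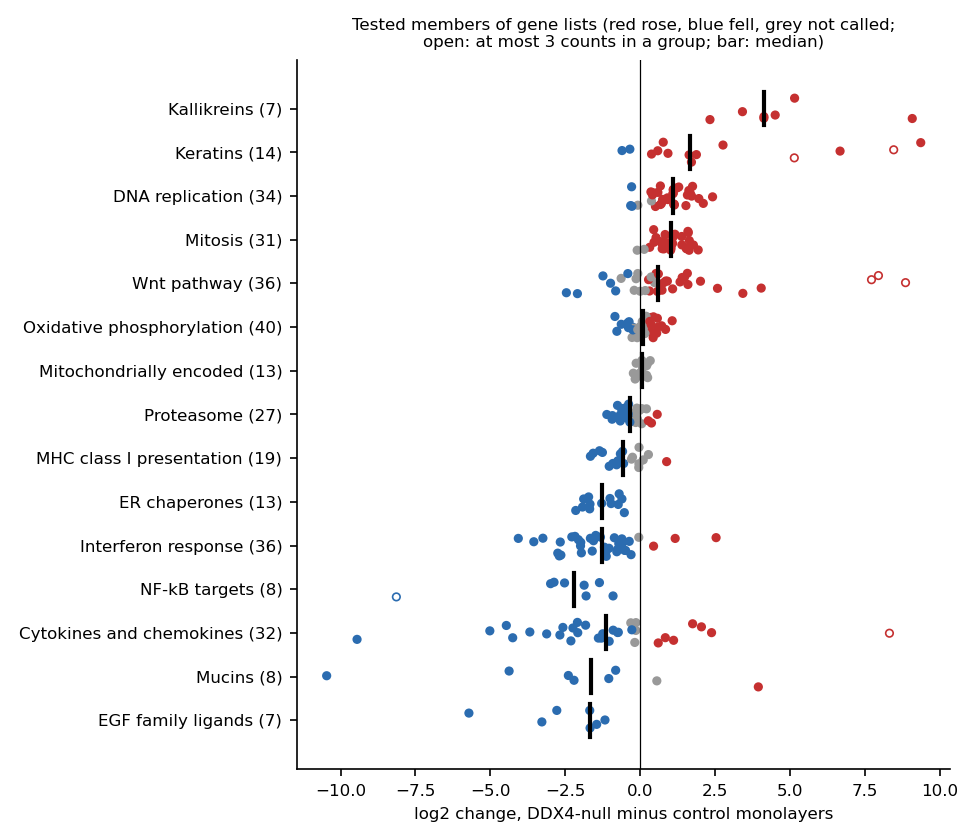
Log2 change of each tested member of 15 gene lists in DDX4-null against control monolayers, red where it rose, blue where it fell and grey where not called, with a bar at the list median and the number tested in brackets. Open points had at most 3 counts in a group, so their fitted change is not a measured fold. The 7 kallikreins of the list lie above 0 and the 7 EGF family ligands below it. Members that passed the filter for testing only through the null group include KLK4 to KLK8, KLK11, KRT4, KRT6A and KRT6B.

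Genes of DNA replication and mitosis were higher in DDX4-null cells. E2F factors control many replication genes, and the search used the words TTTCCCGC, TTTCGCGC, TTTGCCGC and TTTGGCGC, on either strand. The CHR element TTTGAA, on either strand, marks genes of the G2 and M phases. Matches, shown only for genes that rose and whose values follow, are in capitals with 15 bases on each side. E2F comes first and then CHR, on GRCh38.p14.
GINS2 (chr16:85688963-85689000, minus strand): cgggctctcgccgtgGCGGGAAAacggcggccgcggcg
CDT1 (chr16:88803739-88803776, plus strand): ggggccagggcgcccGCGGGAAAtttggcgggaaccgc
PCNA (chr20:5126659-5126696, minus strand): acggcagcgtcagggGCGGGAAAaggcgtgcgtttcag
CCNB2 (chr15:59105102-59105137, plus strand): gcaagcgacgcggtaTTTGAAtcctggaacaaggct
PLK1 (chr16:23678845-23678880, plus strand): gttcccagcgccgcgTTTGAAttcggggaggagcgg
BUB1B (chr15:40161031-40161066, plus strand): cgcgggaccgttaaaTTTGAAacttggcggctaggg
An E2F word was found in 13 of 29 replication promoters, against 4.43% of tested genes, and the CHR element in 12 of 26 mitosis promoters, against 8.29%. Genes that did not rise held them too: POLE and MCM7 an E2F word, and CDC20 and SMC4 the CHR element. Of 34 replication genes 29 rose and 3 fell, with a median log2 change of 1.10. GINS2, part of the replicative helicase, had 4.46, 2.91, 2.05 and 3.42 CPM in control and 16.1, 18.7, 15 and 18.1 CPM in null libraries (log2 change 2.41 ± 0.18). CDT1, which loads that helicase, rose from 5.66 ± 1.3 to 18.1 ± 2.31 CPM and the sliding clamp PCNA from 56.5 ± 10.3 to 121 ± 14.4 CPM. The 3 that fell were CDC6 (-0.29 ± 0.09), the polymerase POLE (-0.28 ± 0.11) and the repressor E2F7 (-0.32 ± 0.10). POLE lost its call without control replicate 2, DDX4-null replicate 2 or DDX4-null replicate 4 (edgeR adjusted p = 0.106, 0.0574 and 0.0669), and POLE and E2F7 lost it when the median of each chromosome was subtracted (-0.16 and -0.21). MCM7, a helicase subunit on chromosome 7, was not called at -0.08 ± 0.10, while MCM2 to MCM6 all rose. With the median of each chromosome subtracted MCM7 stood at 0.64 (edgeR adjusted p = 1.4e-05). Of 31 mitosis genes 29 rose and 0 fell, with a median of 1.02. PLK1, a mitotic kinase, rose from 34.7 ± 1.23 to 90.8 ± 12.5 CPM, BUB1B, of the spindle checkpoint, from 46.3 ± 3.25 to 134 ± 10.5 CPM, and CCNB2, a cyclin, from 26.4 ± 2.88 to 53.6 ± 2.98 CPM. SMC4 and CDC20 were not called. Among 37 kinesins 22 rose and 3 fell, and those that rose included the mitotic KIF20A (1.93 ± 0.12) and the neuronal KIF5C (2.58 ± 0.11).

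Brakes of the cell cycle moved both ways. CDKN1A, the p21 inhibitor, fell from 69.1 ± 5.5 to 35.6 ± 4.53 CPM, while CDKN2A, which encodes p16, rose from 118 ± 5.19 to 239 ± 34.5 CPM. The survival gene BCL2 rose from 0.911 ± 0.276 to 11.4 ± 1.5 CPM. Of 16 tested histone genes of the replication-dependent type 13 fell and 0 rose, against the direction of the replication genes. H1-2 fell from 187 ± 19.1 to 81.1 ± 10.8 CPM. These transcripts largely escape poly(A) selection, and their reads can be shared between near-identical copies.

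Chaperones of the endoplasmic reticulum were lower in DDX4-null cells. All 13 chaperones and folding factors tested fell, with a median log2 change of -1.29. HSPA5, the master chaperone BiP, had 3122, 2682, 2853 and 3213 CPM in control and 949.5, 979, 855 and 904 CPM in null libraries (log2 change -1.69 ± 0.11), PDIA4, a disulfide isomerase, fell from 594 ± 50.02 to 134 ± 17.1 CPM, and SEL1L, of the degradation channel, from 307 ± 10.4 to 83 ± 9.8 CPM. Several chaperones of other compartments rose, and were picked from the largest gains in CPM after the values were seen. HSP90AA1, a cytosolic one, had 1134, 917, 974 and 1194 CPM in control and 3822, 4254, 4034 and 4762 CPM in null libraries (log2 change 2.00 ± 0.12), the largest gain in CPM of all genes. HSP90AB1 rose from 1477 ± 148 to 2995 ± 134 CPM, HSPA8 from 882 ± 159.6 to 1918 ± 245 CPM, and the mitochondrial chaperonin HSPD1 from 610.3 ± 44.5 to 1162 ± 49.3 CPM. Of the sensors and factors of the stress response 6 of 8 fell and ATF3 rose, from 108 ± 7.57 to 178 ± 12.3 CPM. ATF4 was not called at 0.21 ± 0.11, though it passed without control replicate 4 (0.29, edgeR adjusted p = 0.0163), while its target ASNS, asparagine synthetase, fell from 823 ± 119 to 299 ± 25.7 CPM. Proteasome subunits fell in 15 of 27 cases and rose in 3, with a median of -0.35. The largest loss in CPM was that of FTH1, the ferritin heavy chain, from 24232 ± 3777 to 8859.7 ± 362 CPM, and its light chain FTL fell from 1391 ± 233 to 604 ± 97.9 CPM.

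Growth factor systems changed in their parts. All 7 tested ligands of the EGF family fell, with a median log2 change of -1.69 and a summed level of 198 CPM in control and 40.7 CPM in null cells. HBEGF went from 96.7 ± 9.2 to 30.1 ± 4.1 CPM, AREG from 21.4 ± 2.76 to 3.11 ± 0.186 CPM and EPGN from 58.3 ± 4.52 to 1.1 ± 0.249 CPM. Their receptor EGFR had 356, 368, 400.02 and 346 CPM in control and 105, 100.01, 129 and 104 CPM in null libraries (log2 change -1.75 ± 0.10), while its partners ERBB2 and ERBB3 rose by 0.60 ± 0.10 and 0.80 ± 0.15. In the IGF system the binding protein IGFBP3 fell from 51.3 ± 5.43 to 0.474 ± 0.264 CPM, IGFBP5 rose from 26.1 ± 1.65 to 267 ± 21.4 CPM, the adaptor IRS2 from 6.62 ± 1.3 to 36.7 ± 5.09 CPM, and the receptor IGF1R from 33.8 ± 5.08 to 73.5 ± 11 CPM. VEGFA, the main angiogenic ligand, fell from 336 ± 8.28 to 135 ± 7.04 CPM but rose in tumors, from 102 ± 19.6 to 170.4 ± 26.5 CPM (edgeR adjusted p = 0.033). VEGFC, which acts on lymphatic vessels, fell from 170.4 ± 23.8 to 58.2 ± 5.88 CPM. All 4 tested VEGF and angiopoietin receptors rose, KDR from 14.2 ± 0.715 to 25.8 ± 1.46 CPM and TIE1 from 0.227 ± 0.0817 to 6.18 ± 1.18 CPM. TIE1 and 1 switched-on receptor passed the filter for testing only through the null group, so this count follows in part from the filter. KDR and TIE1 are also endothelial markers. Of the other endothelial markers ESAM alone reached 1 CPM in a group, and it fell from 6.71 ± 0.44 to 3.49 ± 0.487 CPM. The PDGF receptor PDGFRA, also a fibroblast marker, rose from 0.352 ± 0.111 to 9.07 ± 0.297 CPM.

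In the Wnt pathway 22 of 36 tested members rose and 6 fell, and 3 of those that rose were switched on. These 3 and NOTUM passed the filter for testing only through the null group, so the count of rises follows in part from the filter. Of 10 ligands 7 rose, 1 of them switched on. WNT7A rose from 13.4 ± 1.78 to 37.3 ± 4.29 CPM and WNT10B from 2.91 ± 0.758 to 8.66 ± 0.863 CPM, and WNT9A fell from 27.6 ± 3.7 to 5.02 ± 1.3 CPM. Receptors moved both ways: FZD1 rose by 1.40 ± 0.13 and FZD4 fell by 2.10 on the log2 scale. The feedback inhibitors RNF43 and NOTUM rose from 2.86 ± 0.522 to 17.1 ± 0.72 CPM and from 0.192 ± 0.124 to 2.21 ± 0.484 CPM, while AXIN2, a standard target, was not called at 0.36 ± 0.19. In the retinoic acid system CYP26A1 and CYP26B1, which break the ligand down and are induced by it, rose from 0.0588 ± 0.0684 to 2.86 ± 0.716 CPM and from 1.4 ± 0.394 to 9.47 ± 2.31 CPM, and RBP4, a retinol carrier, fell from 37.1 ± 3.13 to 3.16 ± 0.779 CPM. BMP4 rose from 2.98 ± 0.305 to 14.4 ± 2.14 CPM and ID2, a BMP target, from 14.4 ± 2.01 to 101 ± 18.4 CPM, while the activin gene INHBA fell from 365 ± 41.5 to 129.6 ± 13.9 CPM.

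Epithelial secretion and differentiation genes separated by type. Mucins fell in 6 of 8 cases, MUC5AC from 37 ± 4.45 to 1.78 ± 0.498 CPM and MUC2 from 194 ± 26.4 to 36.9 ± 5.93 CPM, and MUC3A rose from 1.41 ± 0.338 to 21.7 ± 4.86 CPM. In tumors MUC2 went the other way, from 10.7 ± 2.54 to 33.6 ± 19.3 CPM (edgeR adjusted p = 0.0351). The trefoil peptides TFF1, TFF2 and TFF3, which are secreted with mucins, fell from 191 to 22.4 CPM, from 326 to 20.3 CPM and from 18 to 0.533 CPM. AGR2, the disulfide isomerase needed to fold mucins, had 1276, 925, 1032 and 1398 CPM in control and 48.7, 59.3, 46.4 and 56.9 CPM in null libraries (log2 change -4.45 ± 0.15). Of the 18 keratin genes tested by name 13 rose and 4 fell, with a median log2 change of 0.90. In the shorter fixed list 12 of 14 rose. Simple keratins rose modestly, KRT18 from 269 ± 24.8 to 457 ± 42.7 CPM and KRT19 from 369 ± 16.1 to 699.8 ± 66.9 CPM. Stratified ones rose more, KRT4 from 0.121 ± 0.102 to 13.3 ± 2.57 CPM. KRT4, KRT6A and KRT6B, with 8, 0 and 2 control counts, passed the filter for testing only through the null group. The counts of keratins that rose and the larger rise of stratified ones therefore follow in part from the filter. The hair keratins KRT81 and KRT86 fell from 1312 ± 81.9 to 1032 ± 122 CPM and from 20.2 ± 2.67 to 13.3 ± 2.51 CPM, and KRT81 lost its call with the median of each chromosome subtracted or in a model of all 16 libraries (edgeR adjusted p = 0.0633 and 0.152). KRT5 and KRT14, the basal pair, stayed at 0.11 CPM or less in both groups. Kallikreins are serine proteases of skin and prostate, and the 7 of the protease list all rose, with a median log2 change of 4.13. KLK4 to KLK8 held 5 to 9 control counts each over the 4 libraries, and KLK11 held 23. All of these passed the filter for testing only through the null group, so their direction and the list median follow in part from the filter. KLK1, from 1 control count, and KLK14, both outside that list, rose as well. KLK5 had 0.255, 0.208, 0.0539 and 0.0622 CPM in control and 80.9, 85.7, 80.6 and 68.5 CPM in null libraries (log2 change 9.08 ± 0.22), and KLK10 rose from 2.98 ± 0.661 to 14.9 ± 3.09 CPM. The prostate marker KLK3 (PSA) was at 0.0432 CPM or less in both groups. FOXA1, a pioneer factor of the prostate, fell from 128 ± 11 to 78.7 ± 6.38 CPM, a call lost with the median of each chromosome subtracted (-0.23, edgeR adjusted p = 0.0514).

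Matrix and protease genes shifted at high levels. PLAU, the urokinase protease, had 1005, 1061, 1072 and 944 CPM in control and 3649, 3009, 3251 and 2883 CPM in null libraries (log2 change 1.65 ± 0.11), while its receptor PLAUR fell from 89.9 ± 3.3 to 29.9 ± 3.4 CPM. The metalloprotease inhibitors moved in opposite directions, TIMP1 from 823 ± 130.4 to 209 ± 36.9 CPM and TIMP2 from 163 ± 26.6 to 345 ± 60.5 CPM. Laminins fell in 7 of 9 cases and integrins in 6 of 12, ITGAV from 121 ± 4.81 to 45 ± 9.72 CPM, while ITGB3 rose from 3.27 ± 0.658 to 21.9 ± 3.62 CPM. Markers of epithelial and mesenchymal state gave no single direction. CDH1, the cell junction protein E-cadherin, fell from 14.4 ± 2.03 to 6.78 ± 0.175 CPM, and the epithelial surface protein EPCAM rose from 16.5 ± 1.22 to 42.8 ± 2.5 CPM. ZEB1, a repressor of epithelial genes, rose from 44 ± 6.78 to 70.2 ± 10.02 CPM, and CDH2, or N-cadherin, fell from 209 ± 20.6 to 119 ± 6.86 CPM. VIM, the filament protein vimentin, rose by 0.30 ± 0.09.

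Of 84 ribosomal protein genes 17 rose and 21 fell, with a median log2 change of -0.02, but RPL10, on the X chromosome, fell from 1571 ± 143 to 612 ± 103 CPM and RPLP0 from 3077 ± 534 to 1581 ± 192 CPM. None of the 13 mitochondrially encoded genes was called, with 0 at an unadjusted p under 0.05 and 0 called by DESeq2. Nuclear genes of oxidative phosphorylation rose in 12 and fell in 8 of 40 cases. Mitochondrial ribosomal proteins rose in 40 of 72 cases and fell in 10, with a median of 0.34. Stress granule genes rose in 2 and fell in 2 of 10 cases, and G3BP1 was not called at 0.12 ± 0.09. Of 29 DEAD-box helicases 5 rose and 10 fell, and DDX3X, the relative closest to DDX4 in this list, fell from 552 ± 30.3 to 349 ± 39 CPM, a call lost with the median of each chromosome subtracted (-0.19, edgeR adjusted p = 0.0971). Of the X-linked cancer-testis genes of the list, 19 were in the table and none passed the filter. MAGEB17, an X-linked MAGE gene outside that list, was tested and stood at 0.466 CPM in control and 1.54 CPM in null cells. PRAME, an autosomal cancer-testis gene, rose from 27.4 ± 3.72 to 82.8 ± 6.97 CPM.

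Zinc finger genes were the largest class counted by name. Of 443 tested C2H2 genes 55 rose and 228 fell, with a median log2 change of -0.36. On chromosome 19, where many of this family sit in clusters, 152 of 205 fell and 6 rose (median -0.73). On other chromosomes 76 of 238 fell and 49 rose (median -0.06), and the other 737 tested genes of chromosome 19 had a median of 0.04. ZNF91, a repressor of mobile elements, had 35.3, 38.9, 39.4 and 33.2 CPM in control and 3.04, 3.97, 4.75 and 5.34 CPM in null libraries (log2 change -3.10 ± 0.15). ZNF536, which represses neuronal differentiation, was an exception, with 9.66 ± 1.26 CPM in null cells from no control count. Reads of zinc finger genes can be shared between close copies. TRIM28, the cofactor of KRAB-type repressors, was not called at -0.20 ± 0.12, though it passed without control replicate 4 (-0.28, edgeR adjusted p = 0.0281) or DDX4-null replicate 1 (-0.30, edgeR adjusted p = 0.0336).

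Changes also ran along chromosomes. With genes in GENCODE v29 order, a run was taken as at least 3 neighbouring tested genes that were called in 1 direction with a log2 change of at least 1.5 in size, a rule set after the values were seen. There were 31 runs with 117 genes that rose and 26 runs with 104 genes that fell, and 8 of the falling runs, with 38 genes, lay on chromosome 19. The longest run held 9 kallikreins, KLK1 to KLK14. Of these, KLK1, KLK4 to KLK8 and KLK11 passed the filter only through the null group. 4 CXC chemokines fell with PF4 in 1 run on chromosome 4, and the EGF ligands EPGN, EREG, AREG and BTC in another. The gel-forming mucins MUC6, MUC2, MUC5AC and MUC5B formed a falling run on chromosome 11 and the trefoil genes 1 on chromosome 21. Some runs mixed unrelated functions. PICALM, a clathrin assembly protein, had 148, 141, 156 and 147 CPM in control and 3.35, 4.65, 4.45 and 4.71 CPM in null libraries (log2 change -5.11 ± 0.12). Its neighbours EED, a core subunit of Polycomb complex 2, HIKESHI, a nuclear import factor, and ME3, a malic enzyme, fell by 5.09, 5.52 and 6.04 on the log2 scale, and PRSS23 and FZD4 by 2.93 and 2.10. In tumors PICALM stood at 135 ± 12.7 CPM in control and 150.1 ± 18.7 CPM in null libraries, and EED at 18.7 ± 0.957 and 21.3 ± 5.3 CPM.

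**Figure D4:**
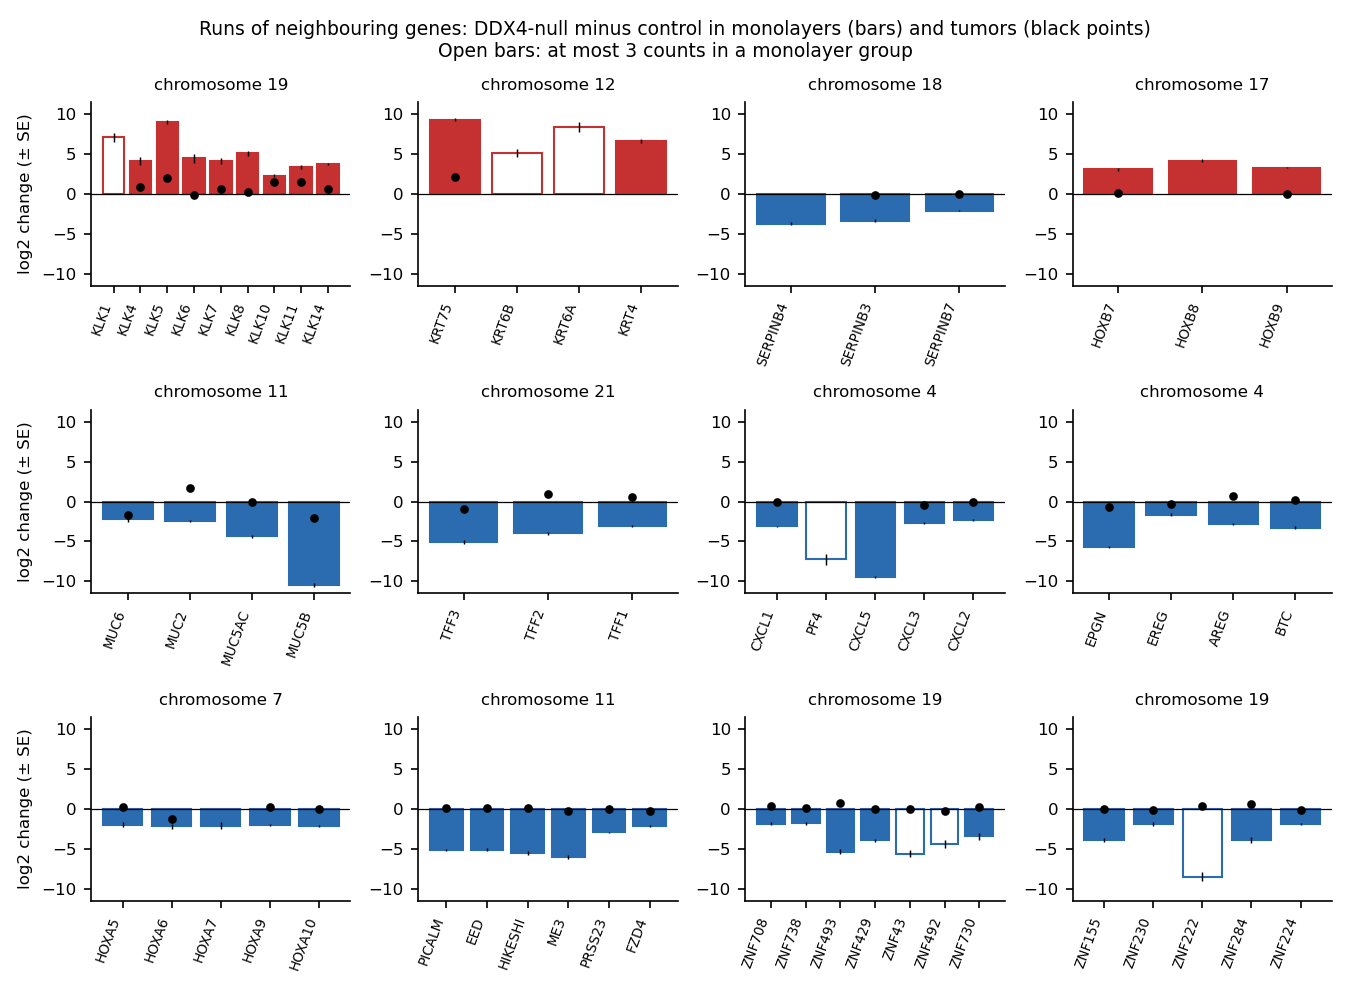
Log2 change (DDX4-null minus control) of genes in 12 runs of neighbours, in chromosomal order but not to distance, as bars with SE for monolayers and black points for tumors where tested. Open bars had at most 3 counts in a monolayer group, so their height is not a measured fold. The tumor points lie near 0 in most runs, with KRT75, MUC2 and MUC5B among the exceptions.

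The HOX genes, which set position along the body axis, split by cluster. In cluster A on chromosome 7, 10 of 11 tested genes fell and 0 rose, HOXA9 from 25.4 ± 2.66 to 6.47 ± 0.711 CPM and HOXA13 from 25.9 ± 2.82 to 7.15 ± 0.955 CPM. In cluster B on chromosome 17, 8 of 9 rose and 0 fell, HOXB9 from 38.2 ± 3.72 to 386 ± 26.1 CPM, while HOXB13, a marker of prostate, was not called at 0.10 ± 0.10. The rest of chromosome 7 had a median log2 change of -0.72, with 421 of 583 genes lower, and the rest of chromosome 17 a median of 0.23. Over whole chromosomes the lowest medians were those of chromosome 7 (-0.73), 14 (-0.47), X (-0.47) and 18 (-0.38), and the highest those of chromosome 21 (0.48) and 13 (0.32). The tumor medians ran from -0.19 on chromosome 20 to 0.06 on chromosome 13, and chromosome 7 stood at 0.01. With the median of each chromosome subtracted, 4184 genes rose and 3957 fell, and 919 in place of 1126 fell at least 2-fold. An effect of DDX4 and a difference of the 2 cell populations that arose apart from it cannot be told apart in these 8 libraries.

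**Figure D5:**
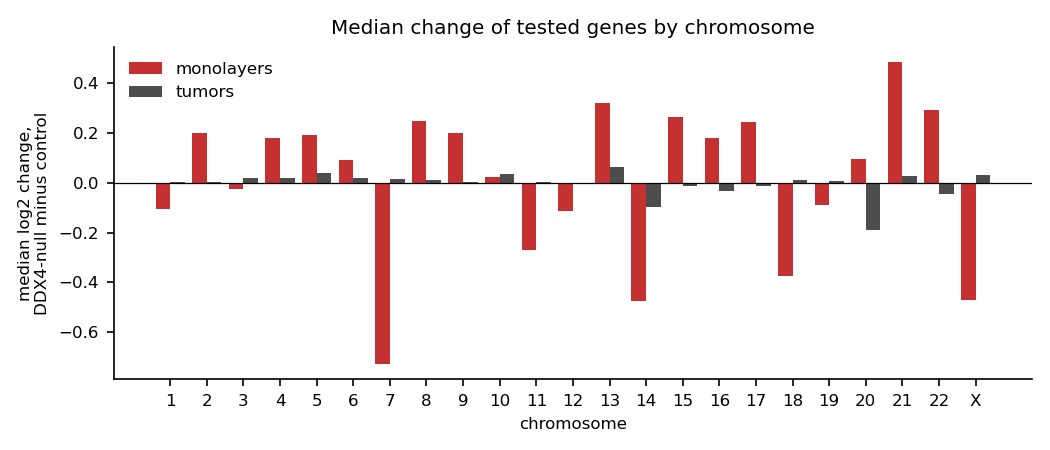
Median log2 change of tested genes on each chromosome, DDX4-null minus control, in monolayers (red) and tumors (dark grey). Chromosome 7 is lowest and chromosome 21 highest in monolayers, while all tumor medians but that of chromosome 20 lie within 0.1 of 0.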

How the data were processed

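RNA-seq was made from 16 libraries of PC3 material, of which the 4 control and 4 DDX4-null monolayer libraries carried the comparison and the 8 tumor libraries served as a readout. DNase-treated total RNA went into TruSeq stranded mRNA libraries, per the labels' protocols. The deposited values are raw counts per gene, made by the authors with Trimmomatic 0.39, STAR 2.7.10a and featureCounts 2.0.3 on GRCh37, per the submitters' processing notes. Not given in the sources used here were the annotation, the strand setting and any removal of host reads from tumors, so reads of overlapping and antisense genes may not be separated. Of 20356 genes in the table, 18979 symbols came from a gene name table and 532 from GENCODE v29, and 845 had no symbol. Rows with an identifier but no symbol were kept in all tests.

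Counts were tested with edgeR 4.0.16 (TMM scaling, filterByExpr, quasi-likelihood test, Benjamini-Hochberg adjusted p under 0.05) in R 4.3.3, fitted on the 8 monolayer libraries alone, with the tumors fitted apart. Levels are CPM on TMM-scaled library sizes, given as mean ± SD of 4 libraries, and log2 changes as estimate ± SE. A bound for a gene with no counts takes 3 counts over the 4 libraries, and ratios with 1 to 3 counts carry an exact 95% interval, which covers counting error only. Promoters were the 250 bases before the start in a RefSeq table on GRCh38.p14. Identifiers were matched by gene and no coordinates were converted.

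The 55 gene lists and 24 classes by name held 1202 members in the lists, of which 1186 were found. The genes, lists and tests were chosen with earlier results of these data known. Genes were named from marked list members, the smallest p and extremes of each list or class, the most abundant switched genes and the largest shifts and folds. Genes named as examples beyond that rule, such as neighbours in a run, promoter examples and genes at a threshold, were chosen after their values were seen. The script for the fit was tested on simulated data. Alternatives were other scalings and filters, DESeq2 1.42.0, a model of all 16 libraries, a replicate block, subtraction of each chromosome's median and leaving out each library. Results for some genes are not reported here.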

Additional observations from a re-analysis of the deposited data

Results flagged for a closer look

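In 19 of 324 groups of 4 libraries checked, 1 library stood apart from the other 3 by more than Dixon's 95% critical value, and chance alone gives about 1 in 20. DDX4-null replicate 2, the library with 6.05% mitochondrially encoded RNA, was the high one for CDKN2A (290.5 CPM), KLK10 (19.5 CPM), LCN2 (55.9 CPM), MUC3A (28.9 CPM) and MYC (922.7 CPM). DDX4-null replicate 1 was high for AXIN2 (4.38 CPM) and low for HOXA9 (5.41 CPM) and SYN3 (5.72 CPM). DDX4-null replicate 3 was high for KIF5C (54.3 CPM), and DDX4-null replicate 4 low for CSF2 (5.25 CPM). Control replicate 4 was high for CSF2 (25.3 CPM), EGF (3.24 CPM), HOXA9 (29.4 CPM) and PRAME (32.9 CPM). Control replicate 3 was high for BTC (6.63 CPM) and low for EED (16.5 CPM) and KDR (13.2 CPM). Control replicate 1 was low for E2F7 (48.8 CPM) and control replicate 2 high for VEGFA (348 CPM). No part of these libraries in the results was tested beyond leaving each out.

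For 6 of 7 genes, chosen after their values were seen, the effect in tumors differed from that in monolayers in an edgeR interaction test over all 16 libraries, adjusted over all genes tested. The share of all genes that passed this test was not counted. In monolayers 35.0% of genes rose and 32.3% fell, against 0.981% and 1.1% in tumors, so many genes may pass and 6 of 7 does not set these apart. The difference in log2 change, tumors minus monolayers, was -7.20 ± 0.31 (SE) for KRT75, 8.42 ± 0.63 for MUC5B, 4.04 ± 0.38 for MUC2, 2.06 ± 0.17 for VEGFA, 5.26 ± 0.16 for PICALM and 5.28 ± 0.26 for EED. Each of these 6 genes had 4 libraries a group in both settings. TCN1 was the gene that did not pass (-0.85 ± 0.63, edgeR adjusted p = 0.268).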

How the results depend on the processing

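The counts of genes that rose and fell stayed within 1.5 times the reported ones under every alternative fit, except that requiring 5 CPM in 4 libraries, which leaves fewer genes to test, gave 953 genes that rose at least 2-fold. Leaving out 1 library gave 4337 to 4665 genes that rose and 3978 to 4226 that fell, with 1703 to 1795 and 1147 to 1211 at 2-fold or more. Scaling by library totals moved the median of tested genes to a log2 change of 0.09 and gave 5030 genes that rose and 3705 that fell, against 4555 and 4201.

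The number of switched genes followed the thresholds by construction. Requiring 0 counts in the silent group left 83 switched on and 5 off, a level of 0.5 CPM gave 259 on, and a level of 5 CPM 44 on and 2 off. Leaving out 1 library gave 170 to 199 on and 16 to 19 off.

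Same-numbered control and DDX4-null libraries share only a number: their deviations correlated at -0.13, -0.20, 0.32 and 0.21, and not every library correlated best with its own number. With the replicate block 4611 genes rose and 4272 fell, 1692 and 1127 of them at 2-fold or more.

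MCM7 turned to a log2 change of 0.64 with the median of each chromosome subtracted. Of the 54 list medians 19 lay beyond 0.5 in size, and 2 of these, those of the VEGF and angiopoietin list and of the fibroblast markers, changed sign under an alternative; the cause was not tested. Depth limits statements on genes of few counts, DDX4 among them.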
